A study of Mus musculus with 12 samples.

Results

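This report follows 42 mouse genes of DNA replication and the G1/S transition, chosen by name from the 35321 genes of the deposited gene table, in 12 RNA libraries. All 42 were found and all passed the filter on low values, with 35 to 2441 reads per gene and library. The cells were C17.2, an established mouse multipotent neural stem cell line of CD1 x C57BL/6 origin, so the libraries share 1 line. They had grown in DMEM/F12 with 10% fetal bovine serum and an antibiotic mix, and neural differentiation was induced by a switch to Knockout DMEM, to which N2 supplement and GlutaMAX were added. RNA was taken from isolated mitochondria, called the mitochondrial preparation here, and from nuclei, at 0, 1 and 2 h after the switch, with 2 libraries labelled as biological replicates in each of the 6 groups. The groups at 1 and 2 h differ from 0 h both in the time elapsed and in the medium, and no library at 1 or 2 h stayed in growth medium, so these cannot be told apart.

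Before a cell copies its DNA, the origin recognition complex, Cdc6 and Cdt1 load the MCM helicase onto origins in G1. Cyclin E with its kinase and the helicase activators Cdc45, GINS and Mcm10 then start the helicase, and polymerases, the sliding clamp PCNA and its loader RFC copy the strands. Many genes of this machinery are targets of E2F transcription factors, and neural progenitors, which divide, express them, while postmitotic neurons keep most of them low.

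The libraries had scaling totals of 30.3 to 42.3 M reads, of which 4564148 to 9252152 lay in listed genes. The share of reads in genes was 18.9 to 21.9% at 0 h and 13.9 to 16.1% at 1 and 2 h, and on the deposited scale, log2 RPM (the reads of a gene per M reads of the scaling total), most genes were lower later. The median gene differed from 0 h by −0.22 and −0.28 in the mitochondrial preparation and by −0.64 and −0.51 in nuclei at 1 and 2 h on the log2 scale, and the values below were therefore quantile-normalized between libraries and are relative to all genes. In 4 libraries (mitochondrial preparation 0 h replicate 2 and 1 h replicate 1, nuclei 0 h replicate 1 and 1 h replicate 1) the ribosomal protein gene Rps27 had 7 to 56 reads against 1488 to 3002 in the other 8. The similarly named gene Rps27rt had 670 to 1180 reads in those 4 and 7 to 24 in the other 8. These genes thus parted the libraries in opposite directions, and why the reads lay on either gene was not tested. This split moved 669 of 21078 tested genes (3.17%), and among the 42 it passed for Pcna and Mcm7, each at −0.28 on the log2 scale in those 4 libraries against the others (limma adjusted p = 0.00213 and 0.00138). Progenitor genes were present (Nes 3535 to 6733 reads, Vim 10771 to 20295, Sox2 71 to 352, Notch1 440 to 819), while Pax6 had at most 3 reads and Prom1 at most 1. The neuronal genes Dcx and Stmn2 had no read in any library, Rbfox3 and Snap25 had at most 1 and Syn1 4 to 14, while Tubb3 (144 to 351 reads) and Map2 (178 to 491) were present in every library. The oligodendrocyte lineage gene Sox10 (721 to 1642 reads) was also present, and Olig1 had at most 1 read. The 10 progenitor markers summed to 692 to 733 RPM in the mitochondrial preparation at 0 h and 510.02 to 535 at 2 h, and to 677 to 685 and 467 to 490.2 in nuclei, on the deposited scale, where most genes were lower later. Vim, the most abundant of them, was not lower in the mitochondrial preparation on the normalised scale. It stood there at 367 and 419 RPM at 0 h and at 439 and 449 at 2 h. In nuclei it stood at 398 and 367 and then at 367 in both libraries. Quantile normalization gives genes of equal rank the same value, so these nuclear values mark its rank. Nes went from 118.4 and 127.7 to 100.98 and 102.3 in the mitochondrial preparation. In nuclei it went from 137.9 and 132.3 to 142.05 and 141.5. Sox2 was lower in both (6.71 and 6.81 to 4.73 and 4.61, and 5.94 and 6.09 to 4.53 and 4.55). Hes1 was highest at 1 h in both. It stood at 5.08 and 4.69, then 11.7 and 12.4, then 6.096 and 6.094 at 0, 1 and 2 h in the mitochondrial preparation. In nuclei Hes1 stood at 5.43 and 5.48, then 11.1 and 11.2, then 5.42 and 6.49. From 0 to 2 h Notch1 went from 17.97 and 19.3 to 14.96 and 16.3 in the mitochondrial preparation. In nuclei Notch1 went from 13.5 and 14.4 to 17.9 and 17.5.

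The 42 genes spanned a 29-fold range of level per length on the deposited scale. Pcna, the sliding clamp, was highest at 17.0 ± 2.68 RPM per kb (mean ± SD over 12 libraries), and Orc1, the largest subunit of the origin recognition complex, was lowest at 0.585 ± 0.191. The 6 subunits of the MCM helicase came next after Pcna together with Rrm1: Mcm7 stood at 15.3 ± 2.98, Mcm6 at 14.6 ± 2.58, Mcm3 at 14.5 ± 2.12, Mcm4 at 13.8 ± 2.43, Mcm2 at 11.4 ± 2.34 and Mcm5 at 10.1 ± 1.40 RPM per kb. Differences between neighbours in this order were not tested. The SD spans the times and fractions, and Mcm4 lay above Mcm2 in every library. The 4 GINS subunits, which work as 1 complex, were unequal, with Gins4 at 4.59 ± 0.725, Gins2 at 2.19 ± 0.360, Gins1 at 1.76 ± 0.481 and Gins3 at 0.737 ± 0.197 RPM per kb. Cdt1 stood at 7.09 ± 1.03 and its licensing partner Cdc6 at 3.92 ± 0.784 RPM per kb.

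**Figure D1:**
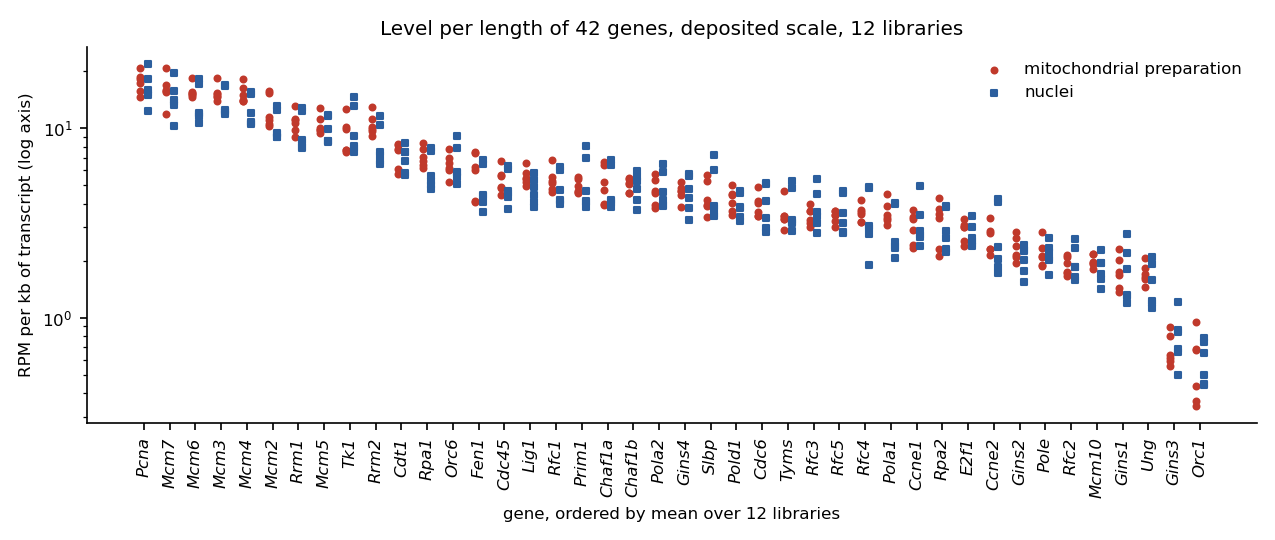
Level per length of the 42 genes on the deposited scale (log axis, RPM per kb of the principal transcript), ordered by the mean over 12 libraries, with a circle for each mitochondrial library and a square for each nuclear one. Levels run from Pcna at 17.0 to Orc1 at 0.585 RPM per kb, and the 6 MCM genes sit among the 8 highest.

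The promoter sequences of the licensing factor Cdt1, which rose, and of Rpa2 and Chaf1a, which fell in the mitochondrial preparation, are shown. These are among the genes that carry the time results, and Fen1, which also fell there, is not printed. Rrm2 and Rpa1, the members of smallest change in nuclei at 2 h, are shown for comparison. The sequences are RefSeq's on GRCm38.p6, read 5′ to 3′ on the gene's strand over up to 200 bases before RefSeq's start, ending earlier where the gene begins earlier in GENCODE. Capitals mark a match to the E2F letters TTCCCGC, or TTGGCGC, or TTCGCGC, or TTGCCGC on either strand. This set of 7 letters was the second one searched, chosen after the values were seen and after a longer set of 8 letters had matched none of the windows shown.
Cdt1 (chr8:122567815-122568014, plus strand): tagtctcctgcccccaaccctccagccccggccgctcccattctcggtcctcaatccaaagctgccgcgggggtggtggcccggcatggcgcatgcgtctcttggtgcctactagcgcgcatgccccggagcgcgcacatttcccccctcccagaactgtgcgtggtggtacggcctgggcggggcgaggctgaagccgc
Rpa2 (chr4:132768160-132768331, plus strand): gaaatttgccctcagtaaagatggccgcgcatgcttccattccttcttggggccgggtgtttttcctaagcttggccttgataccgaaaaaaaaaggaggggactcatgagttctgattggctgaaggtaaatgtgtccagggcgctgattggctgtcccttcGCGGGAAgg
Chaf1a (chr17:56040216-56040415, plus strand): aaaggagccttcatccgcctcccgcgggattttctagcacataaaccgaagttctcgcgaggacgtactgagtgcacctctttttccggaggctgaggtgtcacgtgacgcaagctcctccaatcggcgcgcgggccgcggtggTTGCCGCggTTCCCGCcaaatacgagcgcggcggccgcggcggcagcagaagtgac
Rrm2 (chr12:24708054-24708240, plus strand): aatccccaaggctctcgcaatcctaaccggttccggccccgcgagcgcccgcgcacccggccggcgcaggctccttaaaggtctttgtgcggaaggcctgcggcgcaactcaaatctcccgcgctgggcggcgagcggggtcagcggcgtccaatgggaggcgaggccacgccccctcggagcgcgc
Rpa1 (chr11:75348384-75348583, minus strand): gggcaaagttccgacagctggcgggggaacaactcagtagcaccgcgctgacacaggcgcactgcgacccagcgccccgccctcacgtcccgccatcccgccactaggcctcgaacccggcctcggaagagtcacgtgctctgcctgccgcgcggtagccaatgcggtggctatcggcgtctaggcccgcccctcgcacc
The Rpa2 match began 9 bases, and the Chaf1a matches 56 and 47 bases, before the end of the printed sequence, and none of these letters lay in the windows of Cdt1, Rrm2 or Rpa1. The window of Fen1 before the annotated gene held 0 matches, and its other window, inside the gene, held 1. Of the 42 genes, 35 had a window, and 13 of these (37.1%) held an E2F match in any of their windows. Counted by window this was 14 of 39 (35.9%), against 6.79% of all 32851 windows. The 13 genes were Cdc6, Chaf1a, Fen1, Gins3, Mcm5, Mcm6, Mcm7, Orc1, Pola1, Prim1, Rfc3, Rpa2 and Rrm1. The set searched first, TTTCCCGC, or TTTGGCGC, or TTTCGCGC, or TTTGCCGC, was found in 8 of the 35 (22.9%) and in 20.5% of member windows, against 1.58% of all windows. It was found in neither Rpa2 nor Chaf1a, so the difference in E2F letters between these genes and Cdt1 rests on the choice of letters. The CCAAT letters, on either strand, lay in 57.1% of the members with a window and in 53.8% of member windows, against 29.4% of all windows. For the letters GGGCGG these shares were 65.7% and 61.5% against 31.1%. A match describes the letters alone, and genes with and without it are found both among those that changed and those that did not pass the test.

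Cdt1 was the member that moved most clearly with time. It loads the MCM helicase onto origins and is held in check by geminin and by degradation in S phase. In the mitochondrial preparation its normalised RPM was 13.5 and 14.8 at 0 h, then 14.1 and 13.3 at 1 h, then 19.2 and 19.9 at 2 h. In nuclei it was 11.0 and 12.2 at 0 h, then 14.8 and 15.6 at 1 h, then 20.2 and 19.3 at 2 h. Both 2 h libraries lay above every earlier library in both fractions, and in nuclei the 3 times did not overlap. At 2 h against 0 h Cdt1 rose by 0.47 ± 0.08 (log2, SE) in the mitochondrial preparation (limma, Benjamini-Hochberg adjusted p = 0.0041) and by 0.76 ± 0.08 in nuclei (adjusted p = 0.000207), which is 1.38-fold and 1.70-fold. In bulk RNA, fewer or more cells with a transcript and less or more of it per cell cannot be told apart. The rise from 1 to 2 h was 0.51 ± 0.08 in the mitochondrial preparation (limma adjusted p = 0.00652) and 0.37 ± 0.08 in nuclei (adjusted p = 0.0397). From 0 to 1 h it rose by 0.39 ± 0.08 in nuclei (limma adjusted p = 0.0376), while on the deposited scale that step was −0.31, and it was −0.04 in the mitochondrial preparation (95% interval −0.22 to 0.14). The difference between the fractions in this 1 h step, −0.43 ± 0.12, did not pass (limma adjusted p = 0.126). Within the 8 libraries on one side of the Rps27 split the 2 h differences from 0 h were 0.54 and 0.69, with no call in a fit of that size.

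On the deposited scale the course of Cdt1 had another shape. The deposited RPM was 17.0 and 16.7 at 0 h, then 13.3 and 12.6 at 1 h, then 17.98 and 17.8 at 2 h in the mitochondrial preparation. In nuclei it was 14.7 and 16.5, then 12.4 and 12.7, then 18.3 and 16.4. The 1 h libraries were the lowest in both fractions, while 0 h and 2 h overlapped in nuclei and 2 h lay just above 0 h in the mitochondrial preparation. The rise from 1 to 2 h passed on this scale in both fractions (0.47 in each, limma adjusted p = 0.0157 and 0.0183), and the difference of 2 h from 0 h, 0.09 and 0.16, did not. In the authors' deposited transcript table, on the FPKM scale, the mean of Cdt1 was 6.58, 5.04 and 6.91 at 0, 1 and 2 h in the mitochondrial preparation, and 6.19, 5.04 and 6.90 in nuclei, where 1 h is 1 library. RPM per kb was 1.18 and 1.15 times FPKM in the 2 fractions for this gene.

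**Figure D2:**
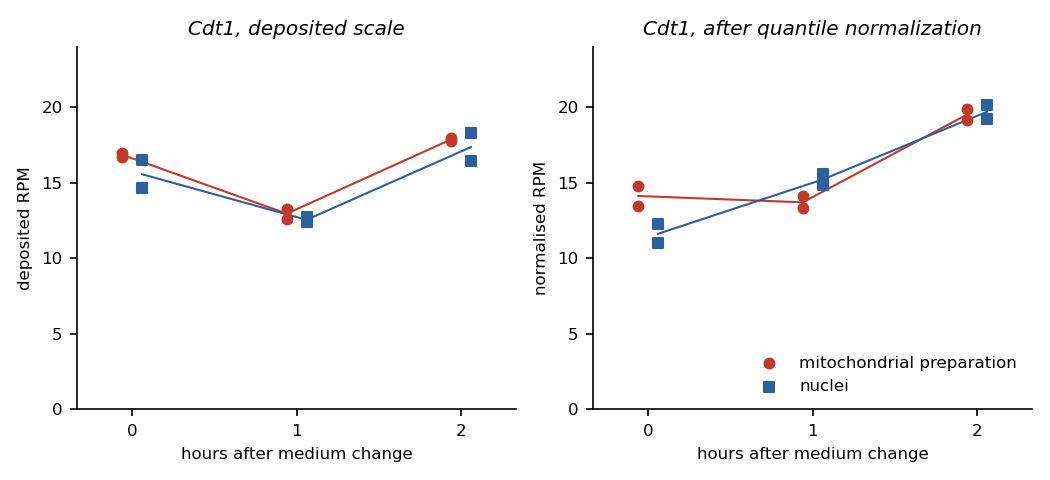
Cdt1 in every library against hours after the medium change, as deposited RPM (left) and as normalised RPM (right), with a point for each library and a line through the mean of 2 libraries. On the deposited scale the 1 h libraries are lowest in both fractions (12.4 to 13.3 RPM), while on the normalised scale the 2 h libraries are highest (19.2 to 20.2 RPM).

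The other licensing and origin genes did not pass the test at any step. Orc1 had 35 to 95 reads, and its difference at 2 h, −0.41 in the mitochondrial preparation, had a 95% interval from −1.04 to 0.22. Its normalised RPM was 2.49 and 1.94 at 0 h, then 1.23 and 1.51 at 1 h, then 2.28 and 1.20 at 2 h there, and 1.31 to 2.37 across the nuclear libraries, with groups that overlap. Cdc6, the ATPase that acts with Cdt1, was at 8.85 to 11.4 normalised RPM, and Orc6, the smallest subunit of the complex, at 6.84 to 9.70.

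The 6 genes of the MCM helicase, which unwinds the DNA at the fork, did not pass at 2 h in either fraction, and their intervals were narrow. At 2 h against 0 h their differences ran from −0.17 (Mcm2) to 0.20 (Mcm7) in the mitochondrial preparation and from −0.05 (Mcm6) to 0.21 (Mcm5) in nuclei. All 12 of their 95% intervals lay between −0.34 and 0.49, that is within 1.5-fold relative to all genes. Mcm7 is a member that passed for the Rps27 split (−0.28, limma adjusted p = 0.00138). In each group at 0 and 1 h its library with few Rps27 reads was the lower one, and the 2 h groups hold no such library. On the deposited scale the 2 h differences of the 6 genes ran from −0.55 to −0.16 and from −0.57 to −0.33. Of them 3 and 5 passed as lower, where 25.5% and 38.1% of all tested genes were lower. The medians of all genes on that scale were −0.28 and −0.51. Mcm2 had 40.5 and 45.3 normalised RPM at 0 h, then 40.7 and 35.8 at 1 h, then 38.6 and 37.4 at 2 h in the mitochondrial preparation, and 33.1 and 33.9, 37.6 and 38.3, and 35.0 and 35.7 in nuclei. Its 1 h step had opposite signs on the normalised scale, −0.17 and 0.18, and the same sign on the deposited one, −0.50 and −0.47. On the normalised scale the difference between them, −0.35 ± 0.11, did not pass (limma adjusted p = 0.186).

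Among the helicase activators, Gins2, a subunit of the GINS complex, was at 6.60 and 5.77 normalised RPM in nuclei at 0 h, then 8.21 and 7.34 at 1 h, then 9.35 and 10.8 at 2 h, so that the 3 times did not overlap. It rose by 0.70 ± 0.12 from 0 to 2 h in nuclei (limma adjusted p = 0.00352). The difference in the mitochondrial preparation, 0.24 and on the deposited scale −0.13, did not pass (95% interval −0.02 to 0.51). In the mitochondrial preparation its levels were 8.86 and 8.43, 8.84 and 8.10, and 11.1 and 9.38. The exons of Gins2 overlap those of Gse1 on the other strand over 67.3% of their length, Gse1 itself rose by 0.85 in nuclei and 0.72 in the mitochondrial preparation at 2 h, and without strand the reads of this pair cannot be told apart. Gins3, another GINS subunit, rose by 0.82 ± 0.24 in the mitochondrial preparation (limma adjusted p = 0.0499, lost in 10 of the 12 fits that leave out 1 library), from 1.37 and 1.34 normalised RPM at 0 h through 1.80 and 1.71 to 2.49 and 2.30. These values rest on 47 to 81 reads, and nuclei overlapped across times (2.20 and 1.56, 1.99 and 2.02, 2.10 and 1.30). The difference of Gins3 between fractions at 2 h, 0.98 ± 0.34, did not pass (limma adjusted p = 0.367). Mcm10, which helps to activate the helicase, differed by 0.30 and 0.35 at 2 h in the mitochondrial preparation and in nuclei (limma adjusted p = 0.0927 and 0.0583) and by −0.06 and −0.22 on the deposited scale, and Cdc45, Gins1 and Gins4 did not pass either.

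Of the sliding clamp and its loader, 1 gene passed a time step: Rfc5, a small subunit of the loader, rose in the mitochondrial preparation at 2 h (0.29 ± 0.09, limma adjusted p = 0.0496), while on the deposited scale its difference was −0.07. This call was lost in all 12 fits that leave out 1 library (limma adjusted p = 0.0560 to 0.254). Pcna had 24.4 and 19.6 normalised RPM at 0 h, then 25.1 and 29.0 at 1 h, then 27.8 and 30.1 at 2 h in the mitochondrial preparation, and 21.1 and 25.3, 22.8 and 28.4, and 26.6 and 26.8 in nuclei. In each of the 4 groups that hold a library of each side of the Rps27 split, the library with few Rps27 reads was the lower one. Its difference at 2 h was 0.41 in the mitochondrial preparation (limma adjusted p = 0.0703) and 0.21 in nuclei, against 0.02 and −0.36 before normalization. The 4 other loader genes, Rfc1, Rfc2, Rfc3 and Rfc4, did not pass at 2 h, and 2 processed pseudogenes named after Pcna could take some of its reads.

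Rpa2, the middle subunit of the single-strand binding protein RPA, fell in the mitochondrial preparation at 2 h. Its normalised RPM there was 5.62 and 7.03 at 0 h, then 6.91 and 6.58 at 1 h, then 4.55 and 4.33 at 2 h, and in nuclei 5.05 and 5.14, 4.96 and 4.89, and 4.996 and 5.78. The mitochondrial 2 h libraries were the lowest of all 12. In nuclei the 2 h libraries spanned the range at 0 h, and 1 h lay just below both. The fall at 2 h was −0.50 ± 0.13 against 0 h (limma adjusted p = 0.0255) and −0.60 ± 0.13 against 1 h (adjusted p = 0.0250), and the deposited scale gave −0.87 and −0.64. The nuclear difference was 0.08 (95% interval −0.20 to 0.36), and the test of the difference between fractions, −0.58 ± 0.18, did not pass (limma adjusted p = 0.297). Rpa1, the large subunit of the same complex, was at 0.01 in both fractions (95% intervals −0.16 to 0.18 and −0.16 to 0.17).

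Of the polymerase genes, Pole, the catalytic subunit of the leading-strand polymerase, rose in nuclei at 2 h by 0.38 ± 0.09 (limma adjusted p = 0.0239), where the deposited scale gave −0.22. Its normalised RPM in nuclei was 12.5 and 14.1 at 0 h, then 17.4 and 14.8 at 1 h, then 17.3 and 17.2 at 2 h. Pold1, the catalytic subunit of polymerase delta, was at 0.32 there (limma adjusted p = 0.067), and at −0.27 on the deposited scale. Prim1, the catalytic subunit of primase, was at 6.97 and 6.67, 9.45 and 7.75, and 8.51 and 8.37 normalised RPM in the mitochondrial preparation and at 9.49 and 8.16, 7.72 and 7.98, and 7.77 and 6.79 in nuclei. Its 2 h differences had opposite signs on the normalised scale, 0.31 and −0.28, and were both negative on the deposited one, −0.06 and −0.82. On the normalised scale the difference between them, 0.58 ± 0.17, did not pass (limma adjusted p = 0.256). The 4 genes of nucleotide supply, Rrm1 and Rrm2 of ribonucleotide reductase, Tyms and Tk1, did not pass at any time step, with intervals from −0.43 to 0.31 at 2 h in the mitochondrial preparation.

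Fen1, the nuclease that trims the flap of an Okazaki fragment, fell in the mitochondrial preparation between 1 and 2 h. Its normalised RPM was 14.1 and 15.6 at 0 h, then 15.8 and 15.1 at 1 h, then 10.6 and 10.8 at 2 h. In nuclei it was 12.2 and 11.4, 12.6 and 11.9, and 11.2 and 9.76. The mitochondrial 2 h libraries lay below every earlier mitochondrial library, and in nuclei the 2 h libraries were also lowest, by less. The fall at 2 h was −0.47 ± 0.09 against 0 h (limma adjusted p = 0.00707) and −0.53 ± 0.09 against 1 h (adjusted p = 0.00942). The nuclear difference of 2 h from 0 h was −0.17 (95% interval −0.37 to 0.03), and on the deposited scale the differences from 0 h were −0.86 and −0.74. Gm10143 covers 78.8% of the exon length of Fen1 on the other strand, and Tmem258 also overlaps its exons there. Gm10143 moved with it (−0.43 at 2 h in the mitochondrial preparation, limma adjusted p = 0.0152) and Tmem258 stood at 0.15 (adjusted p = 0.566), and reads of Fen1 and these genes cannot be told apart.

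Lig1, the ligase that seals those fragments, rose in nuclei by 0.33 ± 0.08 at 2 h (limma adjusted p = 0.0232), where the deposited scale gave −0.26. It was at 13.9 and 12.6 normalised RPM at 0 h, then 15.5 and 14.8 at 1 h, then 16.9 and 16.4 at 2 h in nuclei, with no overlap between times. In the mitochondrial preparation it was at 16.3 and 15.3, 17.5 and 17.9, and 19.5 and 17.8, a difference of 0.24 at 2 h (−0.16 on the deposited scale) that did not pass. Ung, the glycosylase that takes uracil out of DNA, was at 3.09 and 3.28, 4.78 and 4.30, and 3.79 and 3.54 in the mitochondrial preparation and at 2.75 to 3.44 in nuclei.

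The 2 large subunits of chromatin assembly factor 1, which places histones on new DNA, went opposite ways in the mitochondrial preparation on the normalised scale, and on the deposited scale Chaf1b stood near 0. Chaf1a was at 28.4 and 31.2 normalised RPM at 0 h, then 27.7 and 29.7 at 1 h, then 23.2 and 24.5 at 2 h in the mitochondrial preparation, and fell by −0.32 ± 0.08 (limma adjusted p = 0.0212). Chaf1b was at 8.45 and 8.87, 9.45 and 9.34, and 11.2 and 11.0, and rose by 0.35 ± 0.10 (limma adjusted p = 0.0436, lost in 8 of the 12 fits that leave out 1 library), where the deposited scale gave −0.02. In nuclei Chaf1b was at 8.51 and 7.81, 9.60 and 8.65, and 9.74 and 11.6, and rose by 0.38 ± 0.10 (limma adjusted p = 0.0344), against −0.20 on the deposited scale. Chaf1a there was at 29.6 and 27.0, 25.9 and 28.0, and 25.1 and 26.1, a difference of −0.14 that did not pass (95% interval −0.32 to 0.03). Ubxn6 on the other strand covers 52.5% of the exon length of Chaf1a and was itself at −0.11 in the mitochondrial preparation at 2 h. Slbp, which binds the end of histone mRNAs, did not pass at any step.

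**Figure D3:**
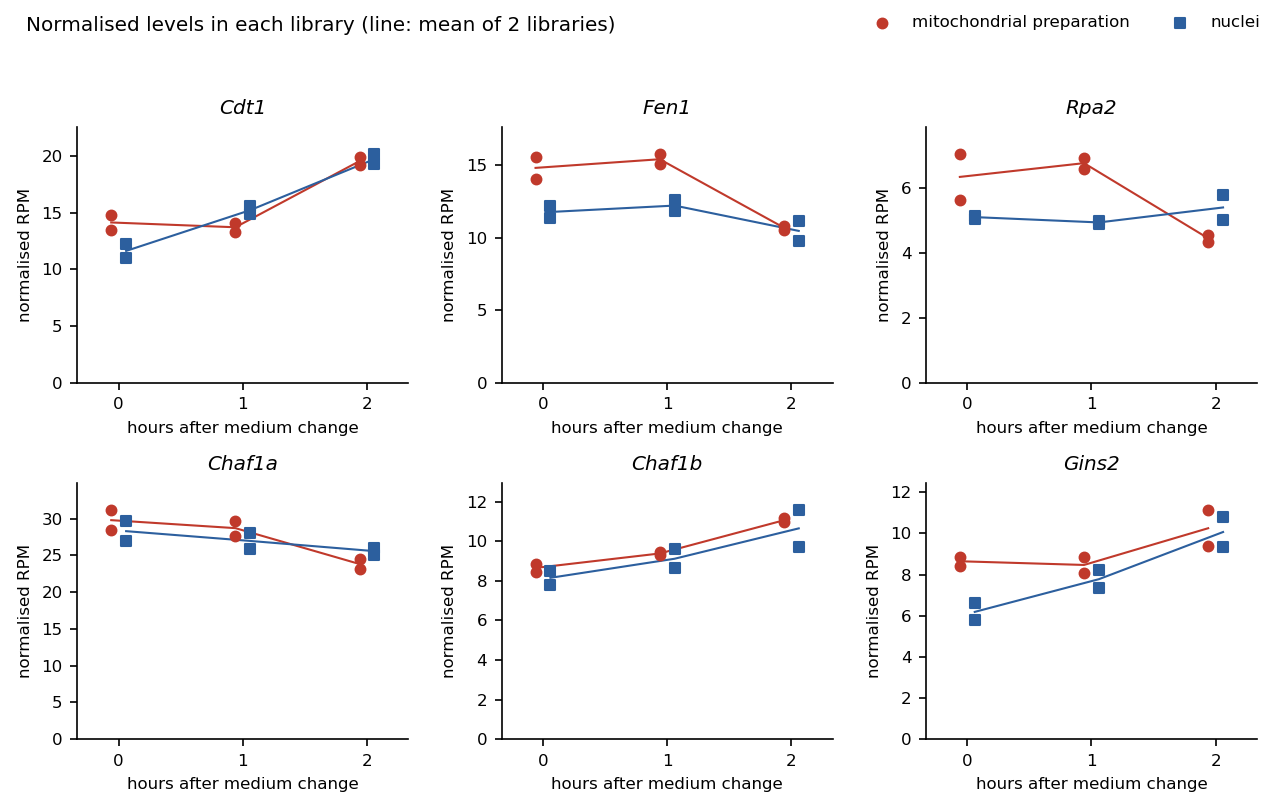
Normalised RPM of 6 genes in every library against hours after the medium change, with a point for each library and a line through the mean of 2 libraries. Cdt1 and Chaf1b are highest at 2 h in both fractions (Chaf1b at 2 h is on the deposited scale −0.02 and −0.20 from 0 h), while Fen1, Rpa2 and Chaf1a are lowest in the mitochondrial preparation at 2 h.

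The G1/S regulators E2f1, a transcription factor of many of these genes, and the cyclin E genes Ccne1 and Ccne2 did not pass at any step. E2f1 was at 6.84 and 7.47 normalised RPM at 0 h, then 9.75 and 8.81 at 1 h, then 7.57 and 7.41 at 2 h in the mitochondrial preparation, and at 6.90 and 5.99, 8.28 and 7.94, and 7.61 and 7.51 in nuclei. In both fractions the 1 h libraries were the highest, by 0.38 ± 0.10 and 0.33 ± 0.10 over 0 h (limma adjusted p = 0.0546 and 0.142), while on the deposited scale these differences were 0.06 and −0.38. Ung (0.51 ± 0.15, limma adjusted p = 0.0685) and Rfc3 (0.45 ± 0.13, adjusted p = 0.0759) stood next to E2f1 in the mitochondrial preparation at 1 h. Rfc3, a small subunit of the clamp loader, was at 4.04 and 3.97, 5.68 and 5.27, and 4.55 and 4.48 there, and at 4.04 to 5.34 in nuclei. Ccne2 was at 9.09 and 9.42, 7.31 and 6.28, and 7.46 and 6.27 in nuclei, and its 2 later times lay below 0 h by −0.45 and −0.44 (limma adjusted p = 0.124 and 0.0593). In the mitochondrial preparation Ccne2 was at 8.20 and 7.63, 9.28 and 7.51, and 6.97 and 7.85, with groups that overlap. Ints8, which overlaps 17.4% of the exon length of Ccne2, fell by −0.63 in nuclei at 2 h.

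Counted over the 42 genes, 4 rose and 3 fell in the mitochondrial preparation at 2 h against 0 h (limma, adjusted p under 0.05), where 4.66% of all tested genes rose and 6.78% fell. The risers were Cdt1, Gins3, Rfc5 and Chaf1b and the others Rpa2, Fen1 and Chaf1a. In nuclei at 2 h 5 rose and 0 fell, beside 4.65% and 5.55% of all genes: Cdt1, Gins2, Pole, Lig1 and Chaf1b. As shares of the members these counts are 9.52% and 7.14% in the mitochondrial preparation, near the background on the lower side, and 11.9% and 0% in nuclei. Under limma voom on recovered reads 6 rose and 1 fell in nuclei, beside 6.37% and 7.68% of all genes. At an unadjusted p under 0.05 11 of the 42 differed there, and 23% of all genes. The deposited scale gave 0 higher and 14 lower in the mitochondrial preparation at 2 h, where 1.7% of all genes were higher and 25.5% lower. In nuclei it gave 0 higher and 30 lower, beside 1.59% and 38.1%. Centring each library on its median gave 2 and 4 in the mitochondrial preparation, beside 4.07% and 11.2%, and 4 and 1 in nuclei, beside 4.86% and 7.26%. The median of the 42 was 0.12 and 0.03 at 2 h, against 0.00 for all tested genes.

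At 1 h against 0 h no member passed in the mitochondrial preparation under limma or limma voom, with 2.24% of all genes higher and 3.74% lower, and 11 of the 42 had an unadjusted p under 0.05, as had 18.9% of all genes. On the deposited scale 0 were higher and 10 lower, beside 0.702% and 17.9% of all genes. In nuclei at 1 h Cdt1 alone rose, beside 1.01% of all genes higher and 0.816% lower, and the deposited scale gave 0 higher and 40 lower, beside 0.508% and 48%. Between 1 and 2 h Cdt1 rose in both fractions and Rpa2 and Fen1 fell in the mitochondrial preparation, beside 1.61% higher and 2.12% lower of all genes there and 1.16% and 1.27% in nuclei. Centring on the median gave 1 higher and 5 lower in the mitochondrial preparation for this step, beside 1.88% and 5.39% of all genes. In nuclei it gave 0 higher and 3 lower, beside 1.27% and 6.05%, so the nuclear call of Cdt1 was lost. No member differed between fractions in its 1 h or 2 h response under limma or limma voom, where 0.327% of all genes were higher and 0.892% lower at 1 h and 0.00474% and 0% at 2 h. At an unadjusted p under 0.05 there were 7 in each, beside 11.8% and 9.75% of all genes.

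The calls rested on few libraries. Without mitochondrial 0 h replicate 2 only Cdt1 was left of the 7 mitochondrial calls at 2 h against 0 h, 2 were left without either 2 h library, and 4 without either mitochondrial 1 h or either nuclear 0 h library. In nuclei 2 of the 5 calls were left without 2 h replicate 2, and 3 without 2 h replicate 1 or either 0 h library. Of the 3 calls from 1 to 2 h in the mitochondrial preparation 1 was left without 1 h replicate 1 or either 2 h library. Cdt1 at 2 h against 0 h passed in both fractions with any 1 library left out (limma adjusted p = 0.00502 to 0.037 and 0.000328 to 0.00539), and its nuclear 1 h call was lost in 10 of the 12. Its rise from 1 to 2 h was lost in 1 of the 12 in the mitochondrial preparation and in 7 in nuclei.

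**Figure D4:**
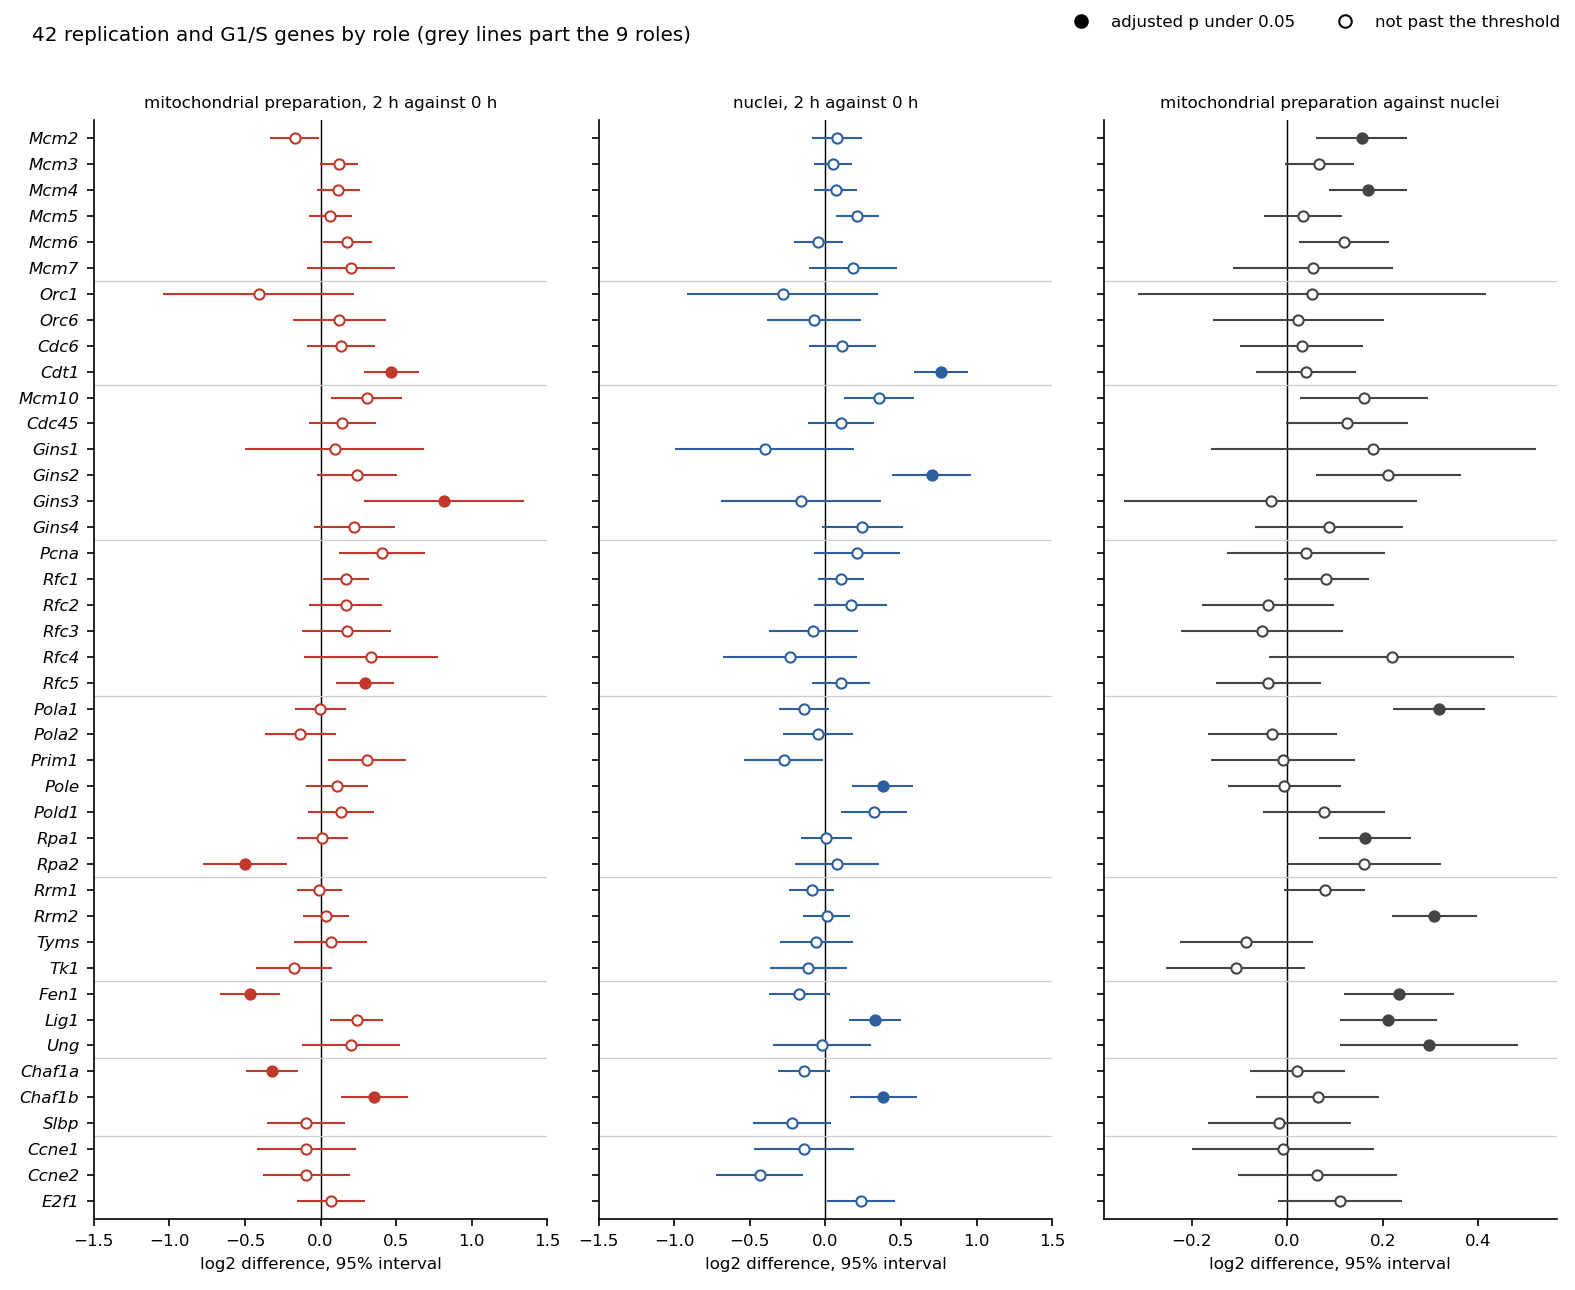
Log2 differences with 95% intervals of the 42 genes, by role, at 2 h against 0 h in the mitochondrial preparation (left) and nuclei (middle), and of the mitochondrial preparation against nuclei (right, another scale), filled where the adjusted p was under 0.05. Values are relative to all genes, and on the deposited scale Rfc5, Chaf1b, Pole and Lig1 change sign among the members that passed at 2 h, with 14 members lower in the mitochondrial preparation and 30 in nuclei.

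**Figure D5:**
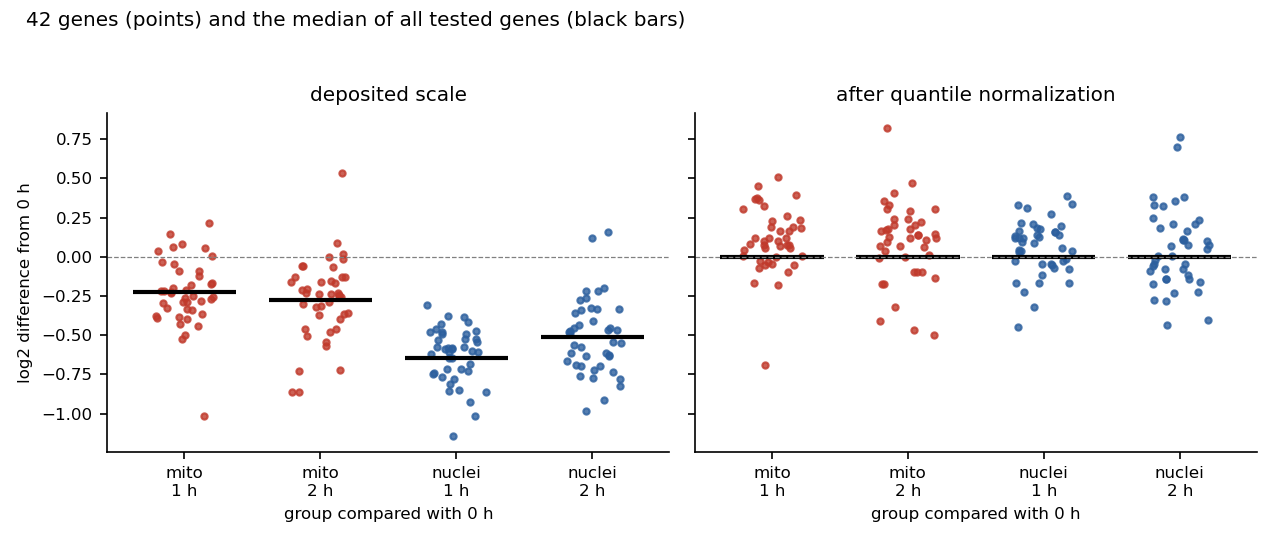
Log2 difference from 0 h of each of the 42 genes (points) in each fraction and time on the deposited scale (left) and after quantile normalization (right), with the median of all tested genes as a black bar. On the deposited scale the points lie around the bars at −0.22, −0.28, −0.64 and −0.51, and after normalization around 0.

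The mitochondrial preparation and nuclei were also compared over the 3 times. Of the 42 genes 8 were higher in the mitochondrial preparation and 0 lower (19% of the members), where 4.43% of all tested genes were higher and 5.19% lower. Rrm2, the small subunit of ribonucleotide reductase, had 21.5 to 23.2 normalised RPM (median 22.3) in the 6 mitochondrial libraries and 17.1 to 19.1 (median 18.05) in the 6 nuclear ones, with no overlap, and was higher by 0.31 ± 0.04 (limma adjusted p = 0.000761). Pola1, the catalytic subunit of polymerase alpha, had 18.2 to 19.6 (median 18.7) against 13.5 to 16.4 (median 15.0), also apart, and was higher by 0.32 ± 0.04 (limma adjusted p = 0.0011). Lig1 (0.21 ± 0.05), Mcm4 (0.17 ± 0.04), Fen1 (0.23 ± 0.05), Rpa1 (0.16 ± 0.04), Mcm2 (0.16 ± 0.04) and Ung (0.30 ± 0.09) were the others, with libraries of the 2 fractions overlapping. The mean normalised RPM of Fen1 was 14.8 against 11.8 at 0 h, 15.4 against 12.2 at 1 h and 10.7 against 10.5 at 2 h. Gm10143, on the other strand of Fen1, differed by 0.24 (limma adjusted p = 0.0213), and reads of these 2 genes cannot be told apart. The deposited scale gave 10 higher and 0 lower, beside 5.16% and 8.32% of all genes. Centring on the median gave 28 higher and 0 lower, beside 20.1% and 4.78%, with the median of all genes at 0.11. With 1 library left out there were 3 to 7 calls: 3 without nuclei 2 h replicate 2, 4 without mitochondrial 0 h replicate 2 or nuclei 0 h replicate 2, and 5 without mitochondrial 1 h replicate 1, either mitochondrial 2 h library or nuclei 0 h replicate 1, and 6 or 7 without any of the others. The nuclear RNAs Malat1, Neat1 and Kcnq1ot1, with Meg3 at 0, summed to 584 to 659.9, 407 to 434 and 309 to 336 RPM in the mitochondrial preparation at 0, 1 and 2 h, and to 1228 to 1280, 539 to 580 and 668 to 748 in nuclei. Their part in the differences between fractions was not tested.

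Further genes around replication and G1/S that are not among the 42 moved in mixed directions. Their differences, here and in the next paragraph, are on the normalised scale and relative to all genes unless stated otherwise. Of 39 other fork and origin genes 5 rose and 3 fell in the mitochondrial preparation at 2 h and 7 rose and 3 fell in nuclei. The shares of all tested genes that rose and fell, for this list and those that follow, were 4.66% and 6.78% in the mitochondrial preparation and 4.65% and 5.55% in nuclei at 2 h. Top1, which relieves twist ahead of the fork, fell in both (−0.40 ± 0.07 and −0.67 ± 0.07, limma adjusted p = 0.00337 and 0.000148). Pole2, a subunit of polymerase epsilon, fell in the mitochondrial preparation (−0.92 ± 0.17, limma adjusted p = 0.00499), and the helicase gene Recql4 rose in nuclei (0.88 ± 0.13, adjusted p = 0.00134). Of 18 other nucleotide supply and chromatin genes 2 rose and 1 fell in the mitochondrial preparation, and 1 rose and 4 fell in nuclei, led by Uhrf1 (0.47 ± 0.07, limma adjusted p = 0.0018), which was −0.07 on the deposited scale.

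Of 32 other G1/S regulators 31 were tested, and 7 rose and 4 fell in the mitochondrial preparation at 2 h against 4 and 7 in nuclei. Cdkn1a, an inhibitor of cyclin-dependent kinases, rose in both (0.81 ± 0.08 and 0.66 ± 0.08, limma adjusted p = 0.000126 and 0.000546), from 8.50 and 8.13 to 13.9 and 15.3 normalised RPM and from 8.05 and 7.62 to 12.2 and 12.5. Cdc25a, a phosphatase that activates these kinases, fell by −0.62 and −0.56 (limma adjusted p = 0.00333 and 0.00616), and Myc rose by 0.76 and 0.92 (adjusted p = 0.00568 and 0.00196). At 1 h the mitochondrial preparation had 4 of the 31 higher and 1 lower, and nuclei 0 higher and 3 lower, beside 2.24% and 3.74%, and 1.01% and 0.816%, of all genes. Ccnd1, a D-type cyclin, was at 68.4 and 75.3 normalised RPM at 0 h, then 117 and 106 at 1 h, then 69.8 and 67.2 at 2 h in the mitochondrial preparation, and rose by 0.63 ± 0.07 at 1 h (limma adjusted p = 0.000405). Of 20 mitotic and G2/M genes 0 rose and 8 fell in the mitochondrial preparation at 2 h and 0 rose and 10 fell in nuclei, where 6.78% and 5.55% of all genes fell, with medians of −0.18 and −0.25. The kinase Plk1 fell by −0.72 ± 0.09 and −0.41 ± 0.09 (limma adjusted p = 0.00052 and 0.0127). Whether the share of these calls differs between the lists was not tested.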

How the data were processed

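RNA was depleted of ribosomal RNA and prepared with the NEBNext Ultra II kit, per the labels' protocols, and strand is not stated. HISAT2, StringTie and edgeR, and the builds GRCm38 and mm10, appear without versions or settings, per the submitters' processing notes. The authors deposited a SeqMonk gene table in log2 units of RPM. A gene without a read stands there at 0.9 read, and 99.9972 to 100% of values were whole reads within 0.05. Of 35373 entries 52 repeats were left out. The authors also deposited a transcript table of FPKM, per the file headers, read for 36 transcripts of 26 members in 11 libraries.

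The 21078 genes with a read in 2 or more libraries were quantile-normalized and tested with limma 3.58.1 in R 4.3.3, with a mean for each of 6 groups over all 12 libraries, variance trend and robust moderation, over 9 contrasts. Genes passed at an adjusted p (Benjamini-Hochberg, over all tested genes of a contrast) under 0.05. The fit was tested on simulated data and, in genes with a mean of at least 50 reads, recovered 62% of 2-fold and 96.4% of 4-fold changes. Of all 2-fold changes it recovered 33%. The required share recovered was set for 4-fold alone, after changes of 1.5-fold had not been recovered. The simulated libraries shared the same spread and held no Rps27 split, unlike the data, so recovery in the data can differ. Every member difference of the 9 contrasts was under 2-fold, so a member that did not pass is not shown to be unchanged. Replicates differed by more than counting noise (chi-square per degree of freedom 8.95 to 12.4 in the groups at 0 and 1 h, and 1.92 and 1.99 at 2 h). Whether they came from separate cultures is given only as a label, so p-values measure the spread between these libraries. Depth was 35 to 2441 reads per member and library. Levels per length used the principal GENCODE M21 transcript, and coordinates are those of GRCm38. Replicate numbers did not pair the libraries (correlations of same-numbered deviations −0.797 to 0.801). Among the groups at 0 and 1 h, each with a library of each side of the Rps27 split, the correlations were strong. They were −0.797 to −0.735 or 0.745 to 0.801, with signs that followed the side of the split. Pairs with a 2 h group, where both libraries are on the same side, stood at −0.023 to 0.056. The main fit holds no term for the split.

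The members and the gene lists were chosen with earlier results of these data known. Every member is accounted for; per-library values are given for at least the 3 members of smallest p in each contrast and those of highest and lowest level per length, and the other lists by the 2 of smallest p for the contrasts described. Some genes of these other lists are not reported here. The sequences of Rpa2 and Chaf1a were added after their values were seen, Gins2 had no window in the table, and Fen1 had 2 windows, of which the one inside the annotated gene holds the E2F match, and neither is printed. The 7-letter E2F set replaced an 8-letter set after the latter's matches were seen. Alternatives were the deposited scale, median centring, limma voom on recovered reads (offset 0.5 read), 2 other filters, a term for the Rps27 split, 8 libraries alone, a replicate block and each library left out.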

Additional observations from a re-analysis of the deposited data

Results flagged for a closer look

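Ccnd2, a D-type cyclin of the G1/S list outside the 42 genes, differed between the fractions in its 1 h response. Its normalised RPM was 155 and 164 at 0 h, then 224 and 219 at 1 h, then 161 and 164 at 2 h in the mitochondrial preparation, and 130.3 and 119, 123 and 111, and 106 and 108 in nuclei. The mitochondrial 1 h libraries stood above all others, and the nuclear groups of 0 and 1 h overlapped. The 1 h step was 0.48 ± 0.06 (log2, SE) in the mitochondrial preparation and −0.10 ± 0.06 in nuclei, and the difference between them was 0.57 ± 0.09 (limma adjusted p = 0.0122, 0.64 on the deposited scale), while on the deposited scale the mitochondrial step itself was −0.02.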

How the results depend on the processing

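Among members called under either scale and named for their p, the direction reversed on the deposited scale for Rfc5 (−0.068) and Chaf1b (−0.015) in the mitochondrial preparation at 2 h against 0 h, Cdt1 (−0.31) and E2f1 (−0.38) in nuclei at 1 h, and Pole (−0.22), Lig1 (−0.26) and Chaf1b (−0.20) in nuclei at 2 h. Over all 42, called or not, the sign differed between the scales for 25 and 26 members in the mitochondrial preparation and for 27 and 21 in nuclei at 1 and 2 h against 0 h. Counts of called members are given in the order of mitochondrial 1 h against 0 h, 2 h against 0 h and 2 h against 1 h, the same for nuclei, and the fractions compared. The deposited scale gave 10 and 14 in the first pair, 40 and 30 in nuclei against 0 h, and 8 for the 1 h difference between fractions. For that last difference 1573 of all 21078 genes were higher and 82 lower, and the shares for the others are given above. Median centring gave 2 at the first step, 6 at mitochondrial 2 h against 1 h and 6 at nuclei 1 h. Of all 21078 genes 583, 396 and 1732 were higher there and 1141, 1137 and 286 lower. Median centring also gave 3 at nuclei 2 h against 1 h, 28 between fractions and 2 for the 1 h difference between fractions. There 267, 4239 and 70 of all genes were higher and 1275, 1008 and 691 lower. Without a filter there were 2 and 2 at 2 h against 0 h. Of all 35321 genes 517 and 599 were higher there and 730 and 655 lower. Nuclei at 1 h and at 2 h against 1 h then had 0, and 4 passed between fractions. Of all genes 116, 167 and 550 were higher in these and 90, 141 and 710 lower. With genes above the floor in all 12 libraries there were 4 at the first step and 5 at mitochondrial 2 h against 1 h. Nuclei then had 2 at 1 h and 8 at 2 h against 0 h. Of all 14440 genes kept, 763, 508, 382 and 1209 were higher in these and 1088, 690, 371 and 1535 lower. With a term for the Rps27 split there were 3 at the first step, beside 750 higher and 949 lower of 21078 genes. The 8 libraries alone gave 0 everywhere, in a fit with 2 libraries in only 2 groups. With each library left out the counts were 0 to 0, 1 to 6, 1 to 3, 0 to 1, 2 to 6, 0 to 1 and 3 to 7, and 0 to 0 for the differences between fractions. The replicate number, which does not pair the libraries, was also used as a block. With it 5 passed in the mitochondrial preparation and 7 in nuclei at 2 h against 0 h, and 6 between fractions. Of all genes 979, 978 and 904 were higher there and 1415, 1192 and 1088 lower. The other member counts were as before. The cause of these changes was not tested. Orc1, Gins1 and Gins3, with 35 to 127 reads in a library, have the widest intervals.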
